A study of Mus musculus with 2 samples.

Results

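Imprinted genes are expressed mainly from the copy inherited from one parent, and 39 of them in the mouse were described here by where the nuclease DNase I could cut their promoters and surroundings in the embryonic face. The 39 genes were chosen by name, with earlier results of these data known, from the 53843 genes annotated on chromosomes 1 to 19 and X. They fell into 15 imprinted clusters, of which 9 held more than 1 listed gene. The data were 2 DNase-seq libraries of 1 group: healthy B6NCrl embryos at day 11.5, both sexes pooled, from which the facial prominences, the tissue buds of the future face, were taken. The labels call the libraries biological replicates 1 and 2, prepared from separate samples. No group carried a mutation or treatment, so there was no contrast between conditions and nothing was tested. The strain is inbred and the peak calls do not separate the parental copies, so a peak cannot be assigned to the maternal or the paternal chromosome.

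Imprinting rests on differentially methylated regions, stretches of DNA methylated on one parental copy in the egg or sperm and kept so in the embryo by ZFP57, which binds a methylated TGCCGC word. Some of these regions are promoters of long noncoding RNAs, such as Kcnq1ot1 and Airn, that silence neighbouring genes on the same chromosome. Others bind the insulator protein CTCF when unmethylated, as between H19 and Igf2, where the insulator keeps enhancers shared by both genes away from Igf2 on the maternal chromosome. Many imprinted genes control fetal growth, with Igf2, Peg3 and Dlk1 among the paternally expressed ones and H19, Cdkn1c, Igf2r and Grb10 among the maternally expressed ones.

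Peaks were 150 bp wide and carry a strength, the authors' own value per peak, for which the sources used here give neither a scale nor a relation to sequencing depth. Strengths are therefore given for each library, replicate 1 before replicate 2, and as the percent of the library's peaks that were weaker, and they are not compared between libraries. A promoter peak had its midpoint within 1 kb of any transcription start site of the gene, a distal peak lay farther away but within 100 kb, and a shared peak overlapped one of the other library by at least 75 bp. Coordinates are 1-based, on the mouse build mm10 (GRCm38), and those of a shared peak are its position in replicate 1. Replicate 1 had 209299 peaks with a median strength of 16 and replicate 2 had 219061 with a median of 42. Of these, 41.1% and 38.5% were matched in the other library. Among markers of the labelled tissue, 7 of 8 facial mesenchyme genes and 3 of 4 facial ectoderm genes had a shared promoter peak. So did 3 of 4 neuronal, 2 of 4 skeletal muscle, 1 of 4 endothelial, 1 of 4 germ line and 0 of 4 erythroid genes. By the same rule 66.0% of protein-coding genes had one, and lists this short do not establish which cell types were present.

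Sequences are shown first for shared peaks at control regions and noncoding RNA starts, since they are the elements on which imprinting of these clusters is known to turn. The H19 downstream peak, beside the enhancer window described below, is shown as well and is not counted among these elements. The 3 words searched on both strands are in capitals: GGNGGCAG, the core of the CTCF sites of the H19 control region; TGCCGC, the ZFP57 word; and GCCATNTT, a YY1 word described at Peg3. On the strand shown, GGNGGCAG may appear reversed as CTGCCNCC, and where the N of that run is G it also holds TGCCGC. All are the plus strand of RefSeq's GRCm38.p6 sequence.
H19 control region, nearest to H19, chr7:142580216-142580365: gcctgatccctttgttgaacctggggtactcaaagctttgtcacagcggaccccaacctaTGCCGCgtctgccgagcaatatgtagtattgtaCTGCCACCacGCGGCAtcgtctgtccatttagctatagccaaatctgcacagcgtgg
H19 control region, middle, chr7:142580656-142580805: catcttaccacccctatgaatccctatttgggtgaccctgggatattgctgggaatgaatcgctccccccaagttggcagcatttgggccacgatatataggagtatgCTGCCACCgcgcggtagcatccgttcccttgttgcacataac
H19 control region, farthest, chr7:142581776-142581925: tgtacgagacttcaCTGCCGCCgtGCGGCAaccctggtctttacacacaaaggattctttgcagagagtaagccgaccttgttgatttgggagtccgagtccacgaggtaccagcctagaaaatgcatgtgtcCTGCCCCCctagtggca
H19 downstream, chr7:142573136-142573285: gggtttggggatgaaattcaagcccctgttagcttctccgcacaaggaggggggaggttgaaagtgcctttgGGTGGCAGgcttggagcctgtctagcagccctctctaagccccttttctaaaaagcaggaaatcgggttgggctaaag
Dlk1-Meg3 intergenic region, chr12:109527556-109527705: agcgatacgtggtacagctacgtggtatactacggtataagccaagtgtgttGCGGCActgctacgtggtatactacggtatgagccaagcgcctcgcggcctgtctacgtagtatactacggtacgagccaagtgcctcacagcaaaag
Meg3 start, chr12:109540856-109541005: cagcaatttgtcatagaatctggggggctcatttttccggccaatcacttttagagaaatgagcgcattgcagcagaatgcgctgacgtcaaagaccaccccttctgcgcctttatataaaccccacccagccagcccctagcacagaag
Kcnq1ot1, inside the transcript, chr7:143295616-143295765: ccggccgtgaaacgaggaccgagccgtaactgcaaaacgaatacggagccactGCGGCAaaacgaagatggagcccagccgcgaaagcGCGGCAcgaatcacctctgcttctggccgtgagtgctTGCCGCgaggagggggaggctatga
Kcnq1ot1 start, chr7:143296516-143296665: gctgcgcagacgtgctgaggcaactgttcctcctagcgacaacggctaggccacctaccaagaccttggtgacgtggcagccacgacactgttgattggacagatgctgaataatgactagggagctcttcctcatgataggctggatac
Airn start, chr17:12741316-12741465: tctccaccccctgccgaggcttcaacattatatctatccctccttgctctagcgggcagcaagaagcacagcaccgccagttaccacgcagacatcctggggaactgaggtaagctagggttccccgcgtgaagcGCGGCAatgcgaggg
Peg3 intronic peak, chr7:6729496-6729645: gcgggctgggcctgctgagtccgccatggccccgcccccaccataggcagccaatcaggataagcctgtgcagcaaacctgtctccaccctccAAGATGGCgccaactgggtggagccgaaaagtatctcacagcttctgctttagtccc

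Each of the 3 peaks of the H19 control region held the CTCF core word, the farthest one 2 of them. Among all 56183 shared peaks more than 1 kb from any start site, 10.01% held it. The word was taken from the CTCF sites of this same region, so its presence there is not an independent finding. Inside the Kcnq1ot1 transcript 1 peak held 3 TGCCGC words, and neither the peak at its start nor that at the Meg3 start held any of the words. The words are letter matches and were not tested for binding.

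Of the 39 imprinted genes, 32 (82.1%) had a shared promoter peak, against 35.3% of all annotated genes. Among the 33 protein-coding ones 28 (84.8%) had a shared promoter peak, against 66.0% of 21755 protein-coding genes, and these imprinted genes had a median of 5 start sites each, against 3 for protein-coding genes, so more sequence was searched per gene. Of the 18 protein-coding imprinted genes with at least 5 start sites, 16 had a shared promoter peak, against 91.2% of the 7825 protein-coding genes with as many. In single libraries, 28 and 30 of the 33 had a promoter peak, against 69.0% and 72.4% of protein-coding genes. The authors' −log10 q of a hotspot, the wider enriched region around peaks, is capped at 100. In 24 of the 33 a shared promoter peak lay in hotspots at that cap in both libraries, against 57.4% of protein-coding genes.

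The strongest promoter peak of an imprinted gene had a median strength of 69 in replicate 1 and 111.5 in replicate 2, stronger than 93.5% and 94.1% of the peaks of those libraries. All genes with a promoter peak had medians of 77 and 113. The protein-coding imprinted genes had medians of 71.5 and 112.5, against 85 and 121 for all protein-coding genes with a promoter peak. Across the 32 genes with a promoter peak in both, strengths of the strongest peak correlated between libraries with a Pearson r of 0.879, a description over points that share tissue and peak caller. The points are not all separate peaks, since Peg10 and Sgce had the same strongest peak, as did Nnat and Blcap. For Mest, Usp29 and Mkrn3 the strongest peaks of the 2 libraries lay 920, 940 and 680 bp apart.

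**Figure D1:**
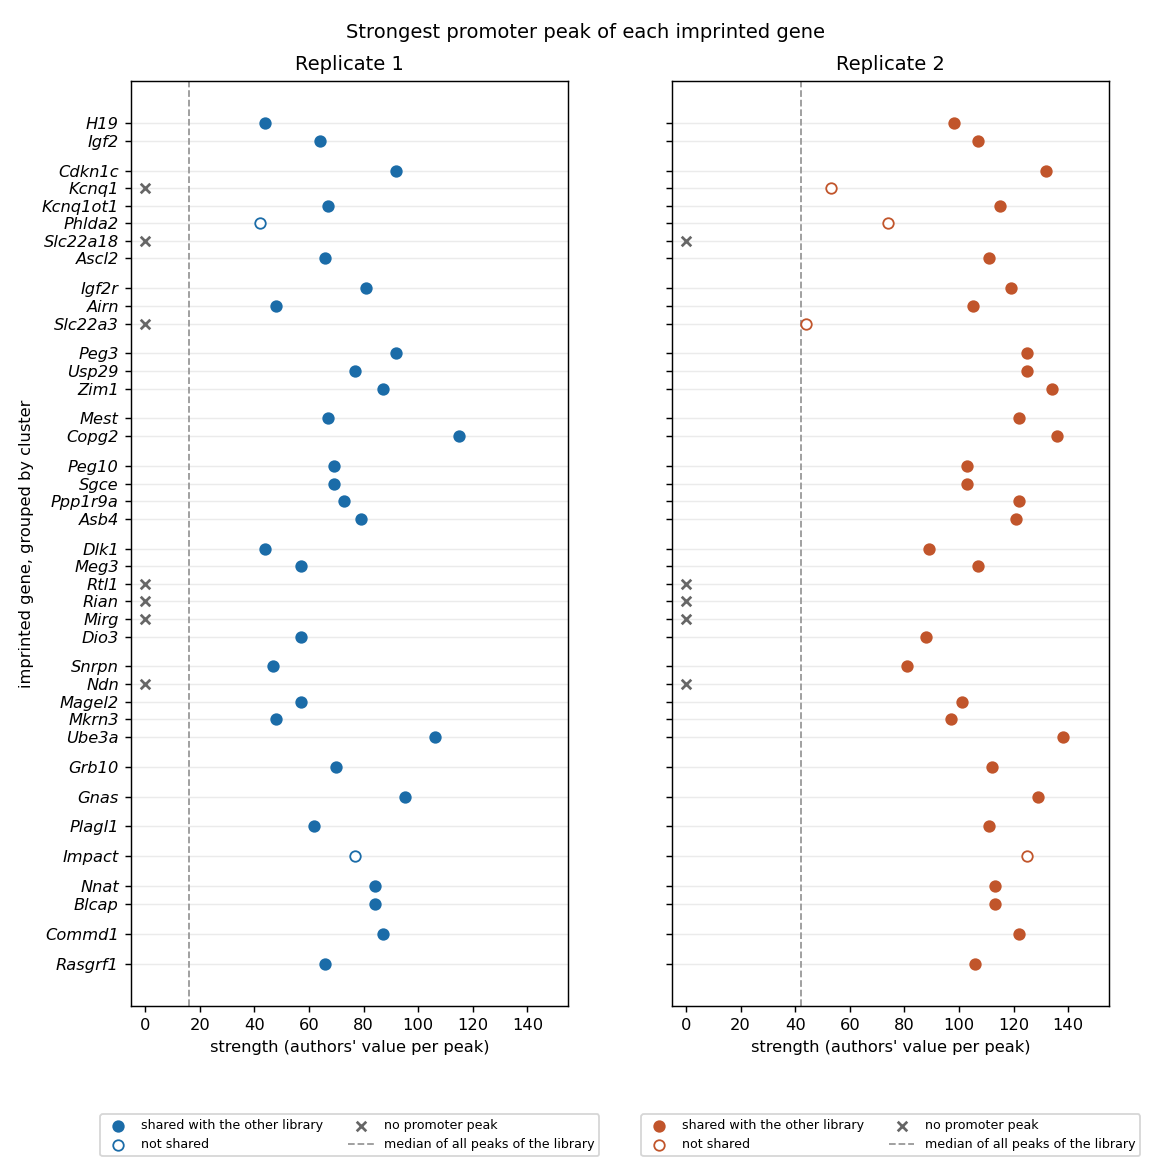
Strength of the strongest promoter peak (x axis, the authors' value per peak) of each of the 39 imprinted genes (rows, by cluster) in replicate 1 (left) and replicate 2 (right). Filled points are peaks shared with the other library, open points are not, crosses mark genes with no promoter peak, and the dashed line is the library's median of 16 or 42, below all the strongest promoter peaks drawn.

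In the H19-Igf2 cluster on chromosome 7, both genes had shared promoter peaks. H19, a noncoding RNA expressed from the maternal chromosome, had 1 promoter peak in each library, of strength 44 and 98, centred 107 bp upstream of its most 5′ start. Igf2, the paternally expressed growth factor, has 6 groups of start sites, and its shared peaks lay at the next 2 after the most 5′ one. The strongest, of 64 and 107, was 39 bp into a transcript starting at 142659489, and no peak lay at the most 5′ start in either library. The next group, starting at 142657496, had peaks of up to 31 and 77, none of them shared.

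Between the genes, the H19 control region had the 3 shared peaks printed above, centred 2147, 2587 and 3707 bp upstream of H19. Their strengths were 53 and 97, 41 and 90, and 37 and 83, so the peak nearest H19 was the strongest and the farthest the weakest in both libraries. All 3 lay in hotspots at the cap in both libraries. The 2501-bp window searched held 5 CTCF core words, of which 4 lay inside peaks of replicate 1 and 3 inside peaks of replicate 2. The fifth lay 3891 bp upstream of H19, in no peak of either library.

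On the other side of H19, the window 5 to 12 kb downstream, where enhancers known for their activity in endoderm lie, had 0 peaks in replicate 1 and 3 in replicate 2, of 50, 58 and 71. The shared peak printed above as H19 downstream lay just outside that window, 4.93 kb from the most 5′ H19 start, with strengths of 43 and 107. By mean rank over both libraries, the strongest distal peak of the cluster, of 73 and 120 at chr7:142611236-142611385, lay 33.2 kb upstream of H19 in an intron of the noncoding gene Gm33148, between H19 and Igf2. In all the cluster had 34 shared distal peaks and 117 shared peaks per Mb of the stretch within 100 kb of its starts. The genome as a whole, which includes sequence far from any gene, had 32.6 per Mb, and the density around other genes was not computed.

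**Figure D2:**
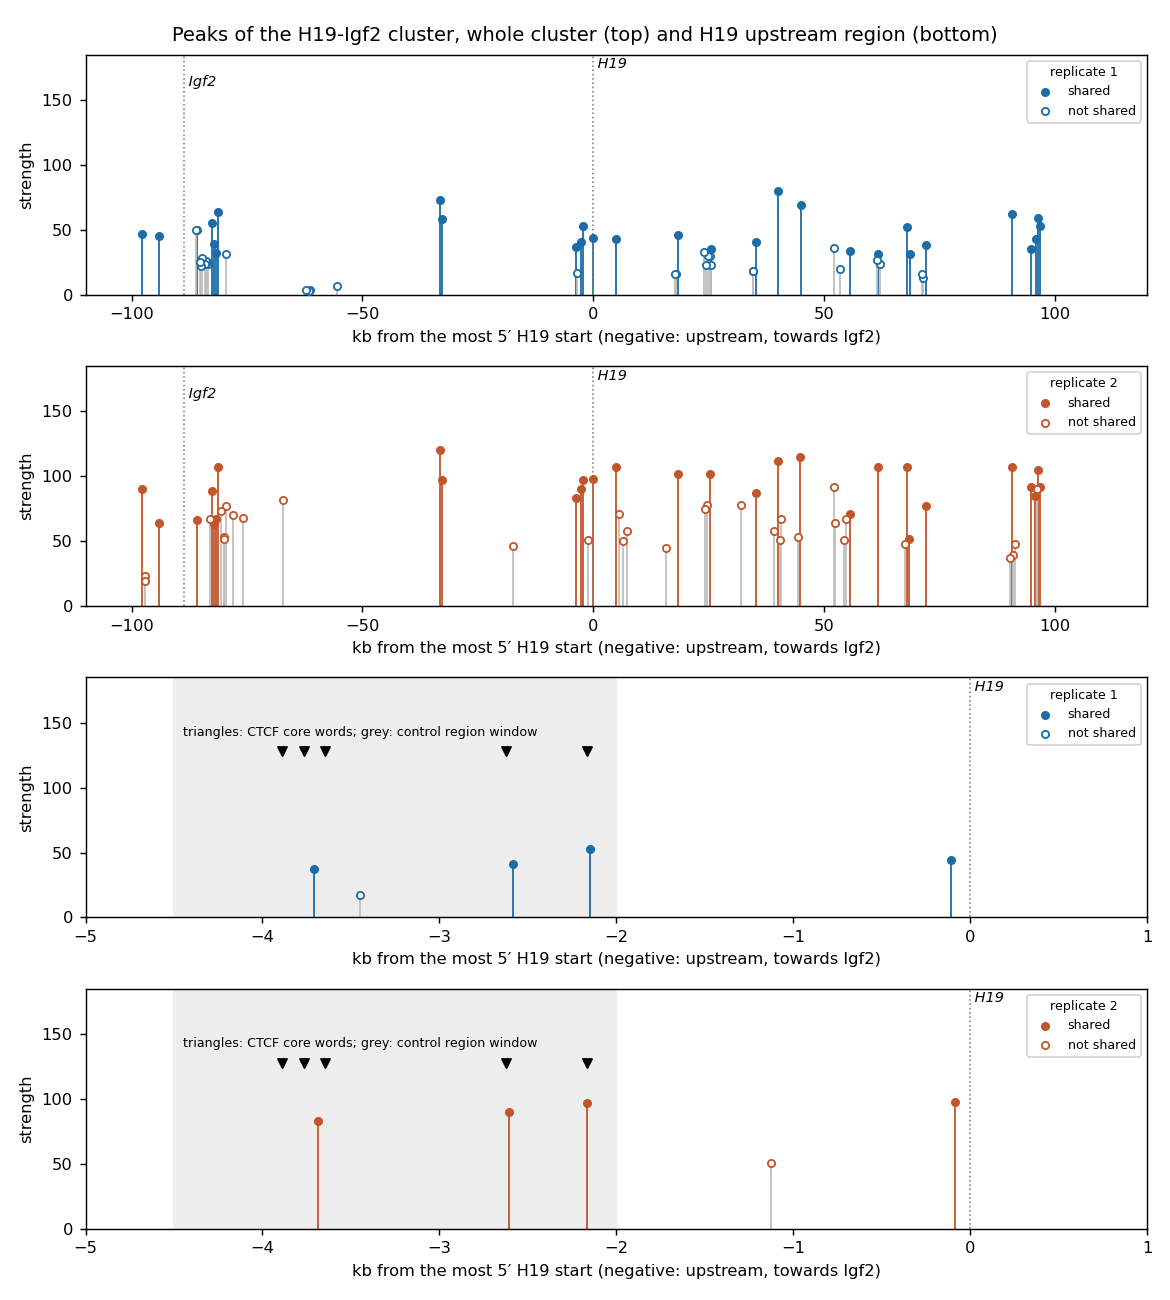
Strength (y axis) of peaks against distance in kb from the most 5′ H19 start (x axis), for replicate 1 and replicate 2. The upper pair shows peaks within 100 kb of that start and the lower pair the H19 upstream region. Peaks of the cluster farther upstream, beyond Igf2, are not drawn. Filled points are shared; triangles mark the 5 CTCF core words, and the 3 shared peaks in the grey control region window lie under or beside them.

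Across the Kcnq1ot1 cluster, which lies next to H19-Igf2, a promoter peak was shared at 4 of 6 genes. Cdkn1c, a cyclin-dependent kinase inhibitor that restrains growth, had the strongest, of 92 and 132, 80 bp upstream of its start. Kcnq1ot1, the paternally expressed antisense RNA whose start lies in an intron of Kcnq1, had 3 shared peaks of 67 and 115, 31 and 66, and 29 and 50. Ascl2, a transcription factor needed in the placenta, had 66 and 111 in its strongest. Phlda2, which restrains placental growth, had the weakest of the genes' strongest shared promoter peaks, of 22 and 49. Its strongest promoter peaks, of 42 and 74, were 80 bp apart in the 2 libraries and so were not counted as shared. The potassium channel gene Kcnq1 had 1 promoter peak in replicate 2 alone, of 53, and the transporter gene Slc22a18 had none in either library, although a shared peak of 54 and 83 lay 3606 bp from it. This cluster had the most shared distal peaks, 59, the strongest beyond 1 kb of any start being a peak of 82 and 114 in an intron of Kcnq1.

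At the Airn cluster on chromosome 17, Igf2r, the receptor that clears Igf2, had promoter peaks of up to 81 and 119. Airn, the noncoding RNA that starts inside Igf2r and silences it on the paternal chromosome, had a shared peak of 48 and 105 over its start, the sequence printed above with 1 TGCCGC word. Replicate 2 had 4 further peaks within 1 kb of the Airn start, of 27, 33, 52 and 53, and replicate 1 had none. Slc22a3, an organic cation transporter gene silenced through Airn in the placenta, had 3 promoter peaks of at most 44 in replicate 2 and none in replicate 1. The strongest peak of the cluster beyond 1 kb of any start, of 63 and 102, lay 5281 bp from the nearest annotated Airn start.

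The Peg3 cluster had shared promoter peaks at all 3 genes. Peg3, a zinc finger gene of fetal growth and maternal behaviour, and the deubiquitinase gene Usp29 start head to head, and 1 peak of 77 and 123 lay between them. The strongest Peg3 peak, of 92 and 125, lay instead 849 bp downstream of a Peg3 start, in an intron, and held the YY1 word printed above. Of the 83 shared promoter peaks of imprinted genes, 3 (3.61%) held that word, against 3.63% of all 29767 shared peaks within 1 kb of a start. Zim1, a maternally expressed zinc finger gene, had 87 and 134 at its start.

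Copg2, a coat protein gene, had the strongest promoter peak of all listed genes in replicate 1, of 115, and 136 in replicate 2. Mest, a paternally expressed hydrolase gene in the same cluster on chromosome 6, has 6 groups of starts. Its strongest shared peaks, of 67 and 118 and of 61 and 122, lay at the group beginning at 30738050, 20 and 960 bp upstream of annotated starts. At its most 5′ start the shared peak of 22 and 58 lay 977 bp away, just inside the 1-kb limit, and held a CTCF core word.

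Around Peg10 on chromosome 6, a gene derived from a retrotransposon, 1 peak of 69 and 103 lay between Peg10 and the divergent epsilon-sarcoglycan gene Sgce and counted for both. An intronic peak 1864 bp into Peg10 was stronger, at 73 and 123. Ppp1r9a, which encodes a neuronal actin-binding protein, had 52 and 95 at its most 5′ start and 73 and 122 near an internal start. Asb4 had 3 shared peaks, the strongest of 79 and 121 and 636 bp upstream of its start.

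Chromosome 12 carries Dlk1, which encodes a Notch-like membrane protein, and the maternally expressed noncoding RNA Meg3. Dlk1 had 1 shared promoter peak, of 44 and 89, whose hotspot had −log10 q values of 1.55 and 4.52, well under the cap. Meg3 had 57 and 107 at its start, and the intergenic control region upstream had 1 shared peak, of 39 and 97, centred 13371 bp before Meg3, with 1 TGCCGC word. That peak's hotspot was at the cap in replicate 2 but at 1.68 in replicate 1. None of the 4 CTCF core words in the 8001-bp window lay in a peak of either library.

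Downstream of Meg3, 3 genes had no promoter peak in either library: Rtl1, a retrotransposon-derived gene, and Rian and Mirg, noncoding hosts of small RNAs thought to be transcribed through from Meg3. Rtl1 had its nearest shared peak 1380 bp away, of 17 and 55, Mirg 2026 bp away, of 52 and 107, and Rian 4990 bp away. A stronger shared peak, of 61 and 112, lay inside Rtl1, 3.98 kb from its start and 953 bp from that of the microRNA gene Mir3071. Its hotspots were at the cap in both libraries. Dio3, whose enzyme inactivates thyroid hormone, had 57 and 88 at its start. The strongest distal peaks of the cluster lay upstream of Dlk1, at 58.8 kb with 89 and 118 and at 14.9 kb with 87 and 111.

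**Figure D3:**
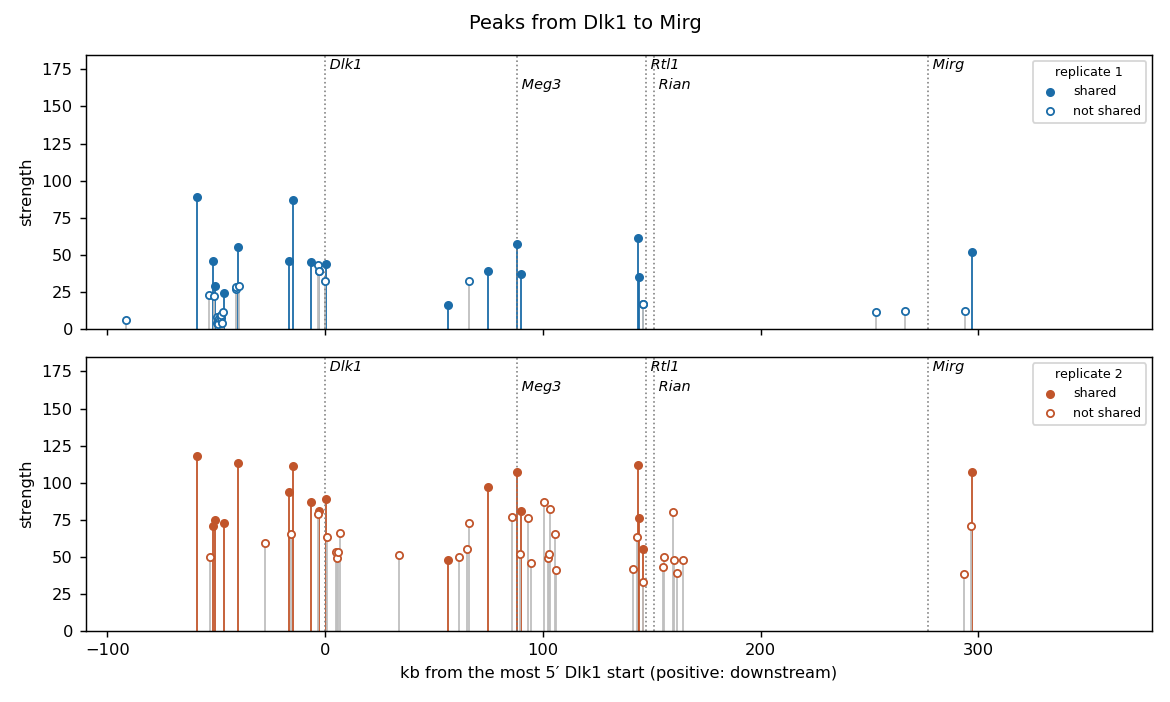
Strength (y axis) of peaks in replicate 1 (top) and replicate 2 (bottom) against distance in kb from the most 5′ Dlk1 start (x axis), with dotted lines at the starts of Dlk1, Meg3, Rtl1, Rian and Mirg; filled points are shared. Shared peaks stood at Dlk1 and Meg3, upstream of them and farther downstream of Meg3, where the strongest had 61 and 112. None lay within 1 kb of a start of Rtl1, Rian or Mirg.

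In the Snrpn region of chromosome 7, the homologue of the human Prader-Willi and Angelman region, a promoter peak was shared at 4 of 5 genes. Ube3a, a ubiquitin ligase gene imprinted in neurons and expressed from both copies elsewhere, had the strongest, of 106 and 138. Among the listed genes it alone had 0 shared distal peaks within 100 kb, against 91.5% of protein-coding genes with at least 1. Repeat-masked sequence made up 50.9% of the surroundings of Ube3a, against a median of 30.6% for protein-coding genes, and its part in the count was not tested. Snrpn, a splicing protein gene, had 47 and 81 beside the start at 60005111, and no peak at the annotated start farther upstream. That peak held 2 TGCCGC words. Magel2 had 57 and 101 and Mkrn3 had 43 and 97 in their strongest shared peaks.

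Ndn, a growth-suppressing gene of the same region, had no promoter peak by the GENCODE annotation, but a shared peak of 64 and 104, in hotspots at the cap in both libraries, lay 1741 bp inside it. The start that RefSeq gives for Ndn, at 62348277, was 33 bp from that peak's centre. With RefSeq starts in place of GENCODE's wherever RefSeq's table had the gene, which was so for 32 genes, 32 of the 39 again had a shared promoter peak, with Ndn gained and Blcap lost.

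Of the genes that stand alone or in pairs, Gnas on chromosome 2, which encodes the stimulatory G protein alpha subunit and other products from alternative starts, had shared peaks at 5 of 6 groups of starts. The main start had 95 and 129, the most 5′ start 47 and 78, the start at 174297859 had 37 and 74 and the start at 174327570 had 60 and 91. The antisense RNA Nespas, which starts within Gnas on the paternal chromosome, had 77 and 121. Grb10, an adaptor that restrains growth, had its strongest shared peak, of 70 and 112, at the start group at 12026732. The group at 12037401 had peaks of up to 70 and 100 that were not shared, and a strongest shared peak of 40 and 73. The most 5′ group had a strongest shared peak of 49 and 73. Plagl1, a zinc finger regulator, had 62 and 111 at 13090691. Its only shared peak near the most 5′ start, of 25 and 47, lay 826 bp downstream of that start, in an intron.

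Impact, a regulator of translation, had 77 and 125 in its strongest promoter peaks, but these lay 80 bp apart in the 2 libraries. Its strongest shared one had 47 and 105. Nnat, a membrane protein gene that sits in an intron of Blcap, had 84 and 113 at its start, a peak that also counted for Blcap since a Blcap transcript starts beside it. At Blcap's own starts, the most 5′ group had a shared peak of 51 and 80, in hotspots at the cap in both libraries, and the group at 157566361 had peaks of up to 67 and 108, none shared. Commd1, a gene of copper balance, had 87 and 122, and its intronic neighbour Zrsr1 had 35 and 77 at its start. Rasgrf1, a Ras activator gene, had 66 and 106.

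Upstream of Rasgrf1, the repeat region that controls its imprinting had 6 peaks in replicate 1, of 19 to 34, and 2 in replicate 2, of 33 and 72. Near 27 kb upstream, 2 overlapping peaks of replicate 1, of 19 and 22, matched 1 peak of replicate 2, of 33. Near 30 kb upstream, a peak of 34 in replicate 1 and one of 72 in replicate 2 overlapped by 70 bp, just under the 75 bp required. Over the 16 landmarks searched (control regions and most 5′ starts), 14 had a shared peak. The others were the H19 downstream enhancers and the most 5′ Snrpn start. The most 5′ annotated starts of Snrpn, Plagl1, Mest and Impact are not the starts at which their imprinting is known to be controlled, so this count is of windows and not of control elements for those 4 genes.

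By the parent whose copy is known to be expressed, 15 of 20 maternally and 17 of 19 paternally expressed genes had a shared promoter peak. Among protein-coding genes 66.0% had one, and among all annotated genes 35.3%. Gnas was counted as maternal although it also makes paternal products. The strongest peaks had medians of 81 and 119 in the maternally and 66 and 106 in the paternally expressed genes. Ube3a was counted as maternal although it is expressed from both copies outside neurons. Which copy the other genes use in the face, such as Copg2, Commd1 and Blcap among the maternal ones, was not measured. The peak of 84 and 113 at the Nnat start entered both medians, for Nnat as paternal and for Blcap as maternal. Of the 6 noncoding genes, 4 had a shared promoter peak, against 35.3% of all annotated genes, coding ones included. The share of noncoding genes alone is not given here. Only Kcnq1ot1 among the 4 had such a peak at the hotspot cap in both libraries. These splits were chosen with the values known and were not tested.

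Distal peaks were counted from any start of a gene. The listed genes had a median of 6 start sites, against 3 for protein-coding genes, so a wider stretch could be searched per gene. In all, 371 distinct shared peaks lay beyond 1 kb and within 100 kb of a listed gene, a median of 14 per gene against 11 for protein-coding genes, and 132 of them counted for more than 1 listed gene. Of the 371, 275 were more than 1 kb from any annotated start, 68 lay at the promoter of an unlisted gene and 28 at that of another listed gene. The 275 comprised 149 intronic, 108 intergenic and 18 exonic peaks, and 83 of them had a listed gene as the nearest. Their median strengths were 31 and 67, against 27 and 63 for all shared peaks that far from a start. Shared peaks were densest in the Nnat-Blcap and H19-Igf2 clusters, at 118 and 117 per Mb, and sparsest in the Snrpn cluster, at 26.03 per Mb. Of the clusters' strongest peaks beyond 1 kb of any start, the top one by mean rank was that of Plagl1, of 96 and 133 in an exon of Sf3b5, 52.1 kb from Plagl1. Next was that of Nnat-Blcap, of 87 and 131 in an intron of Src, 95.0 kb from Blcap.

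**Figure D4:**
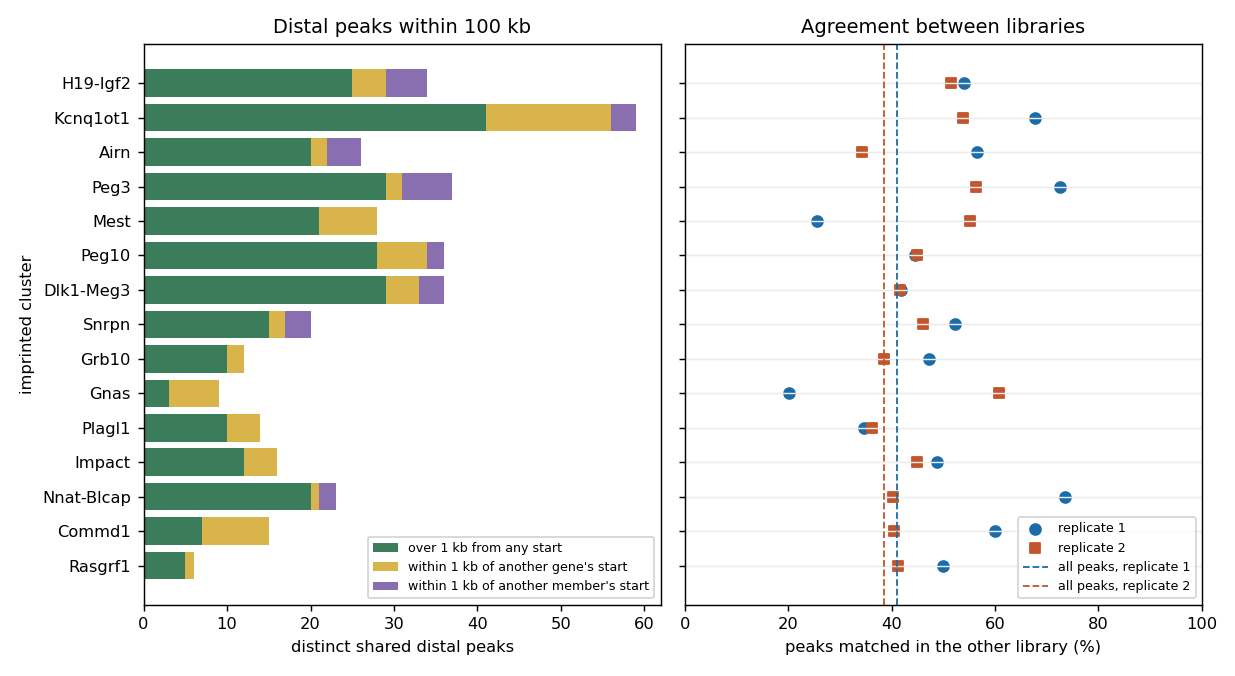
Left, distinct shared distal peaks (x axis) of each of the 15 clusters (rows), divided by whether they lie over 1 kb from any start, at another gene's promoter or at another listed gene's promoter. Right, percent of each cluster's peaks matched in the other library, with dashed lines at 41.1% and 38.5% for all peaks; Mest at 25.5%, Gnas at 20.2% and Plagl1 at 34.7% fall below the line in replicate 1, and Airn at 34.2% and Plagl1 at 36.2% in replicate 2.

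In sequence, the 83 shared promoter peaks had a median GC content of 58.7% and a CpG observed/expected ratio of 0.652, against 62.7% and 0.712 for all shared peaks within 1 kb of a start. TGCCGC was in 16 of the 83 (19.3%), against 11.8%, and GGNGGCAG in 7 (8.43%), against 9.68%. Among the 275 distal ones GGNGGCAG was in 31 (11.3%), against 10.01%, and TGCCGC in 8 (2.91%), against 3.90%. The TGCCGC share at promoters was above that of all shared promoter peaks, and the distal share rests on only 8 peaks. Neighbouring peaks share base composition, and none of these shares was tested.

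The 2 libraries differed in weak peaks at Mest and Gnas. Mest had 22 promoter peaks in replicate 1 and 7 in replicate 2, of which 6 were shared, and Gnas had 18 and 10, of which 8 were. Between 3 kb before and 30 kb after the most 5′ Mest start, replicate 1 had 59 peaks with a median strength of 10, and replicate 2 had 13 with a median of 55. From 47 to 59 kb downstream of the most 5′ Gnas start, the libraries had 26 and 2 peaks, with medians of 9.5 and 33.5 and none shared. In replicate 1 the main Mest peaks lay in 1 hotspot of 9089 bp, whereas their hotspots in replicate 2 were 816 and 1037 bp long. In replicate 1, 4 protein-coding genes had at least 22 promoter peaks, and 2 did in replicate 2. These stretches were picked after their values were seen, and the cause of the difference was not tested.

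**Figure D5:**
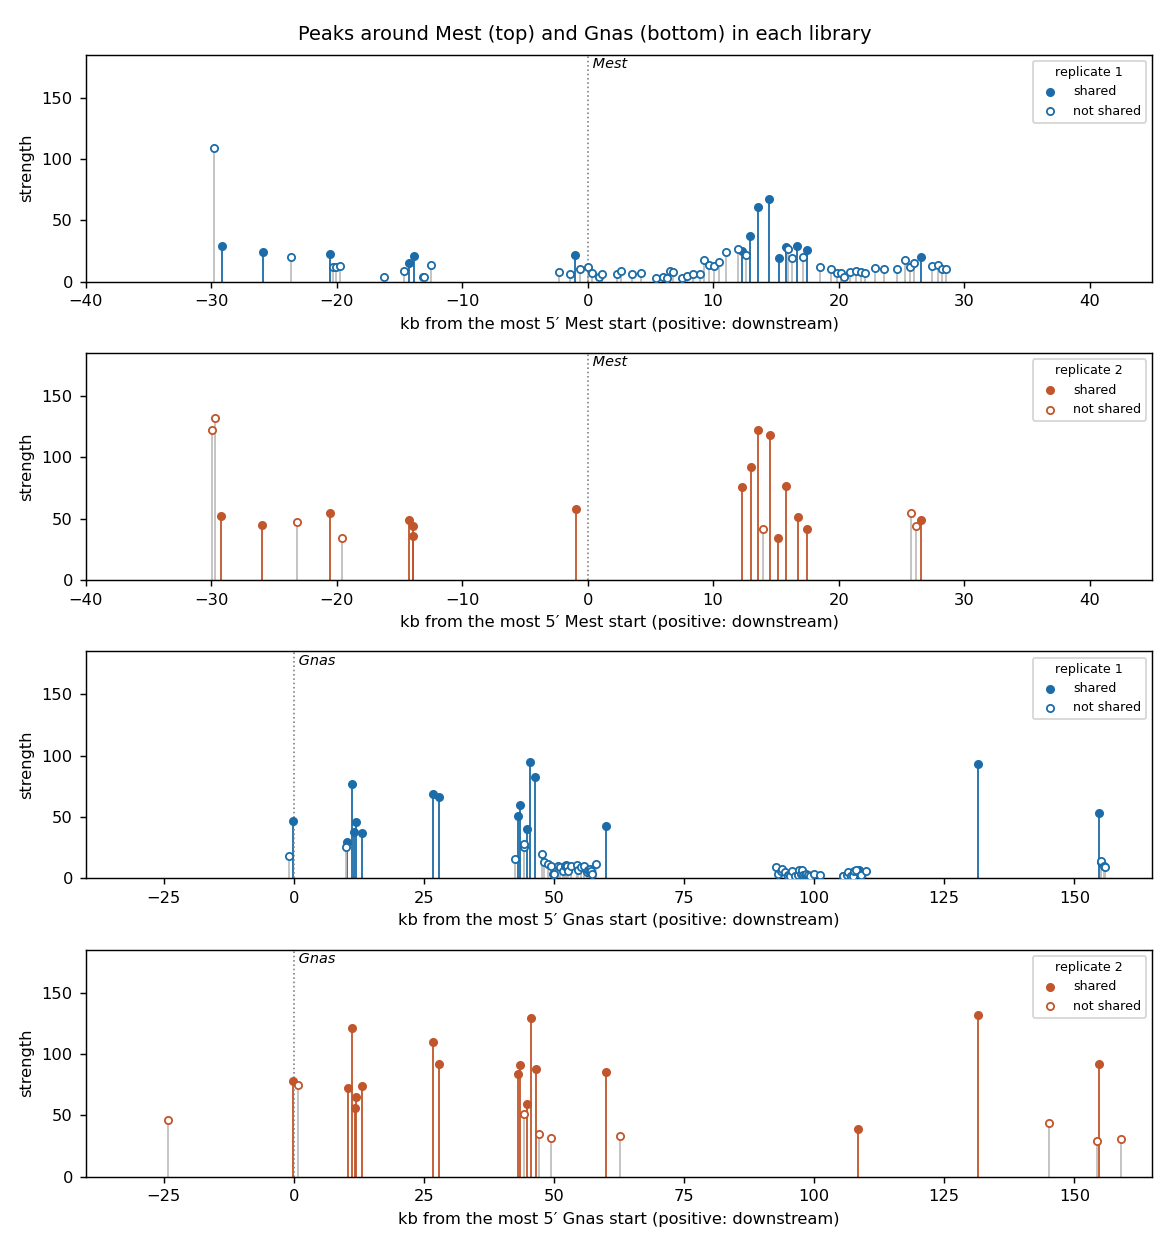
Strength (y axis) of peaks in replicate 1 and replicate 2 against distance in kb from the most 5′ start (x axis) of Mest (upper pair) and Gnas (lower pair); filled points are shared and open points are not. From 3 kb before to 30 kb after the most 5′ Mest start, replicate 1 has 59 peaks, 10 of them shared, and replicate 2 has 13, 10 of them shared.

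Of 38 further imprinted genes counted by the same rule, 31 had a shared promoter peak, against 66.0% of protein-coding genes and 35.3% of all annotated genes. The strongest promoter peaks of these 38 had medians of 62 and 104, against 85 and 121 for protein-coding genes with a promoter peak. The strongest by mean rank were Tssc4, Dhcr7, Gab1, Nap1l4, Ago2 and H13, from 105 and 144 at Tssc4 to 99 and 122 at H13. Tspan32, Ins2, Th and Zfp264 had no promoter peak in either library. Of 15 genes whose products set up, maintain or remove imprints or DNA methylation, 14 had a shared promoter peak, against the same 66.0%. They were led by Uhrf1 with 103 and 136, Ctcf with 98 and 137 and Smchd1 with 102 and 131. Zfp57, named for its role and not by rank, had 64 and 111. Dppa3, a germ line and early embryo factor, had no shared promoter peak, with 1 peak of 16 in replicate 1.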

How the data were processed

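Peaks and hotspots were deposited by the authors for each of the 2 libraries, on build mm10 per the notes deposited with them. Not given in the sources used here were the aligner and the peak caller, and sequencing depth is unknown. Peak strength is a score deposited by the authors for each peak, of unknown scale. Hotspots carry a −log10 q value deposited by the authors, capped at 100. The genes and all gene lists were chosen with earlier results of these data known, and every listed gene was described.

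Start sites came from GENCODE release M21 and sequence and repeat masking from RefSeq's GRCm38.p6, read with Python 3.11.15, pandas 2.3.3 and pysam 0.24.0. Peaks on chromosomes 1 to 19 and X were used and matched by at least 75 bp of overlap. A replicate 1 peak stands for a shared pair, so 2 overlapping peaks can match 1 peak of the other library. Distal peaks were named as each cluster's strongest beyond 1 kb of any start, by mean within-library rank, and any others were picked after their values were seen. Matching was tested on simulated data. Alternatives were other overlaps, windows, start annotations, the 50000 strongest peaks and each library alone. Where the labels name separate samples but not separate litters, the spread between libraries may be technical.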

Additional observations from a re-analysis of the deposited data

How the results depend on the processing

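With an overlap of 90% of a peak in place of 75 bp, 15 genes in place of 32 had a shared promoter peak. At the hotspot cap in both libraries 11 genes in place of 25 had one. Shared distal peaks numbered 93 in place of 371, and 2 landmarks in place of 14 had a shared peak. How far the share of all genes falls at this overlap was not tested, so these counts have no background beside them. With the 50000 strongest peaks of each library there were 167 shared distal peaks, with a limit of 50 kb 229, and with peaks nearest to a listed gene's start alone 109. In single libraries, leaving the other out, distal peaks ranged from 813 to 824, genes with a promoter peak from 32 to 34, those at the cap from 26 to 31 and landmarks with a peak from 14 to 15. Given as the percent of weaker peaks, the median strengths of 69 and 111.5 became 93.5 and 94.1. With a 1-bp overlap 32 genes and 428 distal peaks were counted. Windows of 500 and 2500 bp gave 31 and 35 genes, basic transcripts 31, the strongest peaks 31, and RefSeq starts, an alternative chosen after seeing the data, 32. No paired analysis was possible because there is 1 group. Depth is unknown, so an absent peak does not show closed chromatin.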
